A study of Mus musculus with 8 samples.

Results

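TSLP and IL-33 are alarmins, cytokines that stressed structural cells pass to immune cells, and the genes of these alarmins and of their receptors were followed in tendon-derived stem cells (TSCs). The set held 8 of the 19301 genes in the deposited table. It was chosen by gene symbol, with the difference of Tslp between the groups in these libraries already known. Of these, 3 encode ligands (Tslp, Il7 and Il33) and the rest encode receptor chains (Crlf2, Il7r, Il1rl1, Il4ra and Il13ra1). Because the choice rested on the comparison of the groups, the difference between the groups is given for these 8 genes as a description, without a p-value.

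Primary TSCs isolated from the patellar tendon of mice were cultured for 4 days in low glucose medium or in high fat, high glucose (HFHG) medium, which combined a higher glucose concentration with palmitic acid, a saturated fatty acid. The low glucose cells received DMSO. The study's mice were C57BL/6J, and no engineered allele is named for these cells. RNA was sequenced as stranded mRNA libraries from 4 biological replicates in each group. The age of the tendon donors, and whether the replicates came from separate animals, are not given in the sources used here, so p-values measure the spread between these cultures. Expression is in FPKM, the fragments of a gene per kilobase of its length and per unit of library depth. Levels of different genes can be compared as far as the gene lengths used are right. Some of these lengths differed from the joined GENCODE exons, as for Il7 (3590 against 5664 bases) and Crlf2 (1850 against 1495). Others were close, as for Il13ra1 (3717 against 3712). Ratios between genes depend on these lengths, while comparisons of the groups for 1 gene do not.

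In the pathway as it is known from immune tissues, TSLP binds a receptor made of the CRLF2 chain and the IL-7 receptor alpha chain, and IL-7 binds the same IL-7 receptor alpha chain together with the common gamma chain. IL-33 is stored in the nucleus, is released from damaged cells and binds ST2, the product of Il1rl1, which recruits IL1RAP and signals through MYD88. Both alarmins act on mast cells, dendritic cells and type 2 lymphoid cells. Of these, the mast cells and lymphoid cells answer with IL-4 and IL-13. These cytokines are bound by IL4RA paired with the common gamma chain or with IL13RA1. In skin and airway, TSLP comes mostly from epithelial cells, while fibroblasts can make it as well.

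The libraries held 34308108 to 37362725 reads each, recovered from the FPKM as whole numbers for 19300 genes. Low glucose replicate 4 lay apart from the other low glucose libraries on the component with the next-to-largest variance (3.50% of the variance). The tendon and stromal markers of a fixed list were expressed (15 of 15 above the filter described below). They summed to 3555 to 3611 FPKM under HFHG and 2583 to 2618 FPKM under low glucose, most of it from Ly6a, Col1a1, Col1a2, Dcn and Itgb1. Of the 15, 10 were higher and 4 lower in HFHG (limma, adjusted p below 0.05, 66.7% and 26.7%, against 34.0% and 30.8% of all genes tested). The tenocyte markers Scx and Tnmd were low, at 2.27 and 1.1 FPKM under HFHG and 1.45 and 0.614 FPKM under low glucose. Both were among those higher in HFHG (limma adjusted p = 0.0138 and 0.0164), and the groups overlapped for Scx. Mkx, another tenocyte marker, was lower in HFHG, at 6.73 against 8.62 FPKM (log2 fold change -0.35, limma adjusted p = 7.49e-04). By qPCR, the paper reported lower Scx and Tnmd in HFHG medium and no significant change of Mkx. Macrophage markers were also expressed. Their summed level was 1710 to 1760 FPKM under HFHG and 1871 to 1951 FPKM under low glucose, most of it from Lyz2, and 6 of the 8 above the filter were lower in HFHG (limma, adjusted p below 0.05, against 30.8% of all genes tested). The size of the fall differed among them, from C1qa (18.6 and 36.6 FPKM) and Adgre1 (26.5 and 38.0 FPKM) to Csf1r (7.92 and 8.69 FPKM) and Lyz2 (1637 and 1765 FPKM). Ptprc (1.98 and 2.26 FPKM, limma adjusted p = 0.0886) and Fcgr1 (1.27 and 1.19 FPKM, adjusted p = 0.599) did not pass. Macrophages can express several of the receptor chains described here, so in these bulk samples fewer cells of a type and less RNA per cell cannot be told apart. The part of macrophages in the results below was not tested. Of 8 epithelial markers, Krt10 alone passed the filter (181 reads over HFHG, 200 over low glucose). The other 7 were below it, from Krt5 with 4 and 3 reads to Epcam with 29 and 53 and Cdh1 with 120 and 48, and the list summed to 0.832 to 1.45 and 0.986 to 1.56 FPKM. Of 13 mast cell, eosinophil and lymphoid markers, Rora alone passed the filter (6.89 and 6.5 FPKM) and made up most of the summed level of 7.30 to 7.86 and 5.95 to 7.29 FPKM. The mast cell markers Cpa3 and Kit had 1 and 1 and 12 and 8 reads. Siglecf (52 and 18 reads), Ccr3 (28 and 5) and Il2rb (219 and 54) did not overlap between the groups and were higher under HFHG (p = 0.0286 for each, exact two-sided permutation test, the smallest value it can give). They were below the filter and were named after their values were seen. The groups overlapped for Ms4a2 (8 and 1 reads), Mcpt4 (8 and 5), Prg2 (1 and 1) and Cd4 (24 and 24). They also overlapped for Gata3 (28 and 33), Fcer1a (1 and 5) and Cd3e (0 and 6). Of all genes above the filter, 59.2% had groups that did not overlap. The endothelial list, with 2 of 6 genes above the filter, summed to 1.63 to 1.74 and 1.88 to 2.23 FPKM. The part of these cell types in the results was not tested.

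The 3 ligand genes differed in direction: Tslp and Il7 were higher in HFHG and Il33 was lower. Tslp was at 112.7, 105.3, 109.6 and 112.9 FPKM in HFHG replicates 1 to 4 and at 5.38, 5.76, 4.83 and 3.67 FPKM in low glucose replicates 1 to 4. The groups were far apart, and the lowest low glucose value was that of replicate 4. The means differed 22.4-fold, with a log2 fold change of 4.48 (standard error 0.104), the 3rd largest increase among the 11710 genes that passed a filter of 0.5 FPKM in at least 4 libraries. Behind these values stood 4220 to 4771 reads per HFHG library and 148 to 237 per low glucose library. In HFHG, Tslp was above 95.1% of these genes in its mean level, and in low glucose above 38.2% of them. The gene lies on chromosome 18 of GRCm38 from 32815383 to 32819799.

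The coefficient of variation of Tslp between replicates was 3.24% in HFHG and 18.5% in low glucose, where the medians over the genes above the filter were 4.93% and 5.91%. It was 8.77% without low glucose replicate 4 and, in HFHG, 1.67% without replicate 2.

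Il33 was low throughout and, unlike Tslp, lower in HFHG. Its FPKM were 0.297, 0.380, 0.271 and 0.643 under HFHG and 2.01, 2.30, 2.24 and 2.05 in low glucose. All low glucose libraries were above all HFHG libraries, and HFHG replicate 4 was the highest of its group. In reads, HFHG replicates 1 to 4 had 33, 40, 29 and 70, and the low glucose libraries had 205 to 249. The mean was 5.40-fold higher in low glucose (2.15 ± 0.144 FPKM against 0.397 ± 0.170 FPKM in HFHG, SD, n = 4 each). The log2 fold change was -2.23 (standard error 0.188), the 14th largest decrease among the genes above the filter, which Il33 passed in all low glucose libraries and in 1 HFHG library. With a pseudocount of 1 in place of 0.1 FPKM it shrank to -1.18.

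Il33 lies on chromosome 19 of GRCm38 from 29925113 to 29960718. RefSeq gives it an upstream and an internal start site. The table of FPKM has 1 value for the gene, so use of the start sites could not be separated. Sequences of the 250 bases before a start site are printed for Il33, for its receptor gene Il1rl1 and for Il13ra1, a receptor gene that was lower in HFHG as Il33 was, because the difference in base composition between them can be read there. They come from RefSeq (GRCm38.p6, 5′ to 3′ on the strand of the gene), and capitals mark the matches to the searched motifs. For Il1rl1, the start called upstream is only the more upstream of the starts that had a window. Both lie inside the gene, which begins at 40404864, and no window before that position was analysed.
Il33 upstream start, chr19:29924863-29925112, plus strand: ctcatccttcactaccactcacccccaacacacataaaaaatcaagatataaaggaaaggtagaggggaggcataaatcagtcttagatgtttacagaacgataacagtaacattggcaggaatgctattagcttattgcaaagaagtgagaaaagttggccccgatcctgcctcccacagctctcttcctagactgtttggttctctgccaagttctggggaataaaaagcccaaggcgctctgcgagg
Il33 internal start, chr19:29945540-29945789, plus strand: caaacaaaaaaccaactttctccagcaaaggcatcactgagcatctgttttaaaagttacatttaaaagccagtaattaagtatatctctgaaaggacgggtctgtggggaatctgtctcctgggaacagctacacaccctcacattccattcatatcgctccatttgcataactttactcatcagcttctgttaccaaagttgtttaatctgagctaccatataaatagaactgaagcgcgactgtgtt
Il1rl1 upstream start, chr1:40429320-40429569, plus strand: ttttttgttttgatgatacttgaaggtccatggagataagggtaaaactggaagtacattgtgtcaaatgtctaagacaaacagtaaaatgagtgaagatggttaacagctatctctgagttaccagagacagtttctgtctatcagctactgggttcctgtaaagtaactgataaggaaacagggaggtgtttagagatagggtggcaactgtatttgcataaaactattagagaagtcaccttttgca
Il13ra1 start, chrX:36111858-36112107, plus strand: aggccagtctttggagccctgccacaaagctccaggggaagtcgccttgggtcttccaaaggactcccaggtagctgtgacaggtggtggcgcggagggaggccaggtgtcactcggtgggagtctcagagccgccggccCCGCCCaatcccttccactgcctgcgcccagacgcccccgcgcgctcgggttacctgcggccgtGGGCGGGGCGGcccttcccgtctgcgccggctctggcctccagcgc

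Promoters of 6 of the 8 genes were found in the RefSeq table, and those of Il7 and Tslp were not analysed here. The motifs searched on both strands were those of AP-1 (TGANTCA), STAT factors (TTCNNNGAA), the E-box (CACGTG), the GC box (GGGCGG) and NF-kB (by its consensus). Neither start of Il33 and not the upstream start of Il1rl1 had a match, so these sequences are all in lower case. Il13ra1 had 3 GC boxes, at 110, 46 and 41 bases before the start (the latter pair overlap by 1 base), and the window of Crlf2 had 5. Il4ra and the internal start of Il1rl1 each had 1 GC box, and Il7r had 1 STAT match. Each of these windows overlaps a GENCODE exon of its own gene, so it is not purely upstream sequence in that annotation. GC boxes are common, with a match in 32.7% of 32851 promoter windows of this length, against 3.90% for NF-kB, 6.02% for the E-box, 6.75% for AP-1 and 7.02% for STAT. The share of G and C was 70.8% in Il13ra1 and 71.6% in Crlf2. It was 45.2% and 39.6% at the starts of Il33 and 37.6% at the upstream start of Il1rl1, with a median of 52.4% over all windows. The window of Crlf2 had 24 CpG dinucleotides, that of Il13ra1 had 21 and that of Il4ra had 17, where the median was 6, while the windows of Il33, Il1rl1 and Il7r had at most 4. The GC-rich group held both genes that were lower (Crlf2, Il13ra1) and a gene that was higher in HFHG (Il4ra).

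Il7, the cytokine that shares a receptor chain with TSLP, was also low. It was at 1.52, 1.17, 1.36 and 1.29 FPKM in HFHG and at 0.828, 0.951, 0.817 and 0.697 FPKM in low glucose, with 149 to 204 and 89 to 124 reads per library. The groups did not overlap, and the mean was 1.62-fold higher in HFHG (log2 fold change 0.64, standard error 0.119). Tslp and Il7 were both higher in HFHG, from different levels. In low glucose, Tslp was 5.27 to 6.49 times the level of Il7 in the same library, and in HFHG 74.1 to 89.7 times. The ratio of Tslp to Il33 within a library was 1.79 to 2.68 in low glucose and 175.5 to 405.0 in HFHG.

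**Figure D1:**
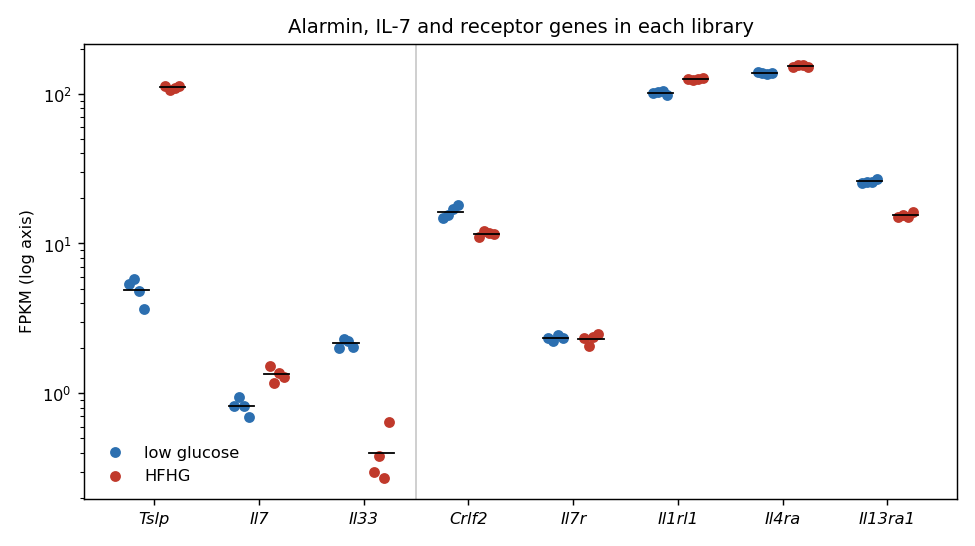
FPKM (log axis) of the 3 ligand genes (left of the line) and the 5 receptor genes in each of 4 low glucose and 4 HFHG libraries; each point is 1 library and each bar the mean of a group. Tslp is near 110.1 FPKM under HFHG and 4.91 FPKM under low glucose, Il33 is lower in HFHG, and the points of the groups overlap only for Il7r.

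Of the receptor for TSLP, the specific chain was lower in HFHG and the values of the shared chain overlapped between the groups. Crlf2 was at 11.1, 12.2, 11.7 and 11.6 FPKM in HFHG and at 14.9, 15.5, 16.9 and 18.0 FPKM in low glucose. The groups did not overlap, and the mean was 1.40-fold higher in low glucose (log2 fold change -0.48, standard error 0.0581). Il7r was at 2.33, 2.08, 2.38 and 2.49 FPKM in HFHG and at 2.33, 2.25, 2.45 and 2.33 FPKM in low glucose. Its low glucose values all lay within the range of the HFHG values. Its log2 fold change was -0.01 with a standard error of 0.0778, and each library held 306 to 379 reads of it. Crlf2 was 4.64 to 5.88 times the level of Il7r in the HFHG libraries and 6.38 to 7.74 times in the low glucose libraries. The ligand went from below to above its receptor chain, since Tslp was 0.204 to 0.371 times the level of Crlf2 in low glucose and 8.61 to 10.1 times in HFHG.

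Il1rl1, the receptor gene of IL-33, was among the abundant mRNAs. It was at 125.2, 123.9, 125.6 and 126.3 FPKM in HFHG and at 100.9, 103.0, 103.9 and 97.5 FPKM in low glucose, above 94.4% of the genes that passed the filter even in low glucose. The replicates were tight, with a coefficient of variation of 0.804% in HFHG, and all HFHG libraries were above all low glucose libraries. The means differed 1.24-fold (log2 fold change 0.31, standard error 0.0253). The receptor was 196.3 to 464.3 times the level of its ligand Il33 in HFHG and 44.7 to 50.3 times in low glucose. Il1rl1 encodes the membrane receptor ST2 and, from a shorter transcript, a soluble form that binds IL-33 without signalling. The gene length recovered from the FPKM was 7454 bases, longer than the longest GENCODE transcript of the gene (5302 bases), so the FPKM are for the gene as a whole and its forms are not separated.

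Il4ra, the chain common to the receptors of IL-4 and IL-13, had the highest level of the 8 genes in both groups. It was at 151.7, 156.2, 154.4 and 150.0 FPKM in HFHG and at 139.2, 136.5, 134.9 and 136.8 FPKM in low glucose. The HFHG libraries were all higher, by 1.12-fold in the mean (log2 fold change 0.16, standard error 0.0228). Its partner Il13ra1 was at 15.1, 15.6, 15.1 and 16.3 FPKM in HFHG and at 25.5, 25.8, 25.6 and 27.1 FPKM in low glucose. Here the low glucose libraries were all higher, by 1.68-fold in the mean (log2 fold change -0.74, standard error 0.0374). Within a library, Il4ra was 9.23 to 10.2 times the level of Il13ra1 in HFHG and 5.05 to 5.46 times in low glucose.

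In GRCm38, the receptor genes lie on chromosome 5 from 109554709 to 109559128 (Crlf2), chromosome 15 from 9506159 to 9529941 (Il7r), chromosome 1 from 40404864 to 40465418 (Il1rl1), chromosome 7 from 125552271 to 125579474 (Il4ra) and chromosome X from 36112108 to 36171262 (Il13ra1), and Il7 lies on chromosome 3 from 7572028 to 7613760.

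In low glucose, the order of the mean levels from high to low was Il4ra, Il1rl1, Il13ra1, Crlf2, Tslp, Il7r, Il33 and Il7. In HFHG it was Il4ra, Il1rl1, Tslp, Il13ra1, Crlf2, Il7r, Il7 and Il33. Tslp went up by 2 places, and Il33 and Il7 exchanged theirs at the lower end. The values of neighbours in the order overlapped for Il7r and Il33 in low glucose and for no other pair. Of the 8 genes, 7 had groups that did not overlap (4 higher and 3 lower in HFHG), which was the case for 59.2% of all genes above the filter, and nothing is read from this count because the genes were chosen with the comparison known. The median log2 fold change of the 8 genes was 0.07, against 0.02 over all genes above the filter.

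The other chains of these receptors and the genes that act around them were counted from lists of 112 genes, of which 108 were in the table and 87 passed the filter. At an adjusted p-value below 0.05 (limma, Benjamini-Hochberg over 11710 genes), 38 of the 87 genes rose in HFHG (43.7%, against 34.0% of all genes tested) and 26 fell (29.9%, against 30.8%). When FPKM were rescaled to the same sum in each library, 43 rose and 19 fell, but the calls over all genes shifted upward too. With this scaling 4682 of all genes tested rose and 3002 fell, against 3983 and 3609 without it. Of the calls in the lists 69.4% were then rises, against 60.9% of the calls over all genes tested. Without the rescaling these shares were 59.4% and 52.5%. By the threshold in the study's methods, more than a 2-fold change and p below 0.05 without adjustment, 4 rose (4.60%, against 3.68% of all genes tested) and 1 fell (1.15%, against 1.65%). The 4 were Ccl11, Vdr, Il15 and Cish, of which Il15 passed the filter in its HFHG libraries alone, and with the filter at 1 FPKM the count was 3. The 1 that fell was Myc, which the lists hold as a gene induced by cytokine signals.

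**Figure D2:**
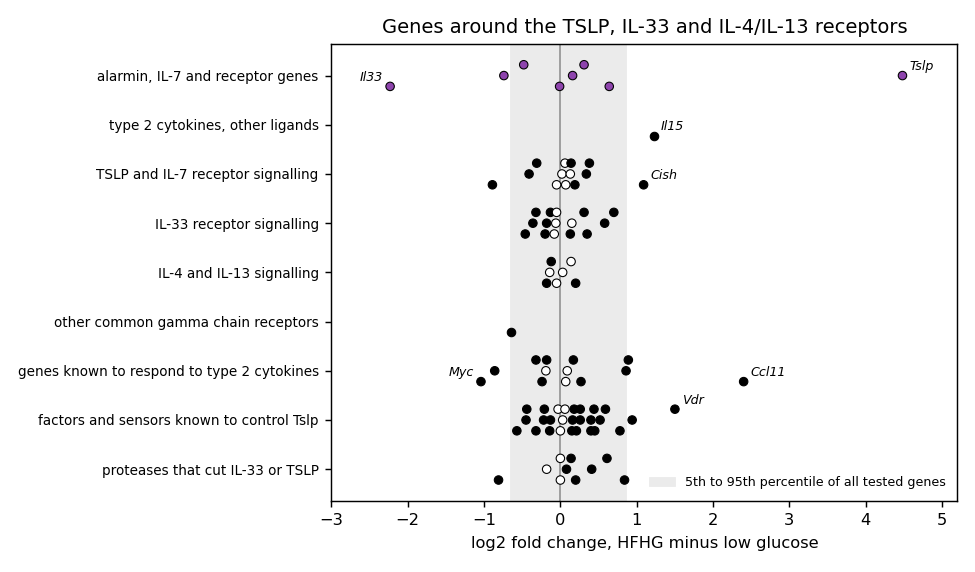
Log2 fold change (HFHG minus low glucose) of the genes above the filter in each list, 1 point per gene, filled in black where the adjusted p-value by limma was below 0.05, with the 8 alarmin, IL-7 and receptor genes in purple and untested. The grey band is the 5th to 95th percentile of all genes tested (-0.65 to 0.86), and genes beyond 1 in either direction carry their names.

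The partner chains of the receptors did not move together. Il1rap, the coreceptor of ST2, rose from 17.4 ± 0.611 to 28.3 ± 0.929 FPKM (SD, n = 4 in each group), a log2 fold change of 0.70 (limma adjusted p = 5.23e-09). The level of Il1rl1 was 5.66 to 5.93 times that of Il1rap in low glucose and 4.28 to 4.58 times in HFHG. Il2rg, the common gamma chain, fell from 5.26 ± 0.415 to 4.27 ± 0.617 FPKM (log2 fold change -0.31, limma adjusted p = 0.0176), but low glucose replicate 4, at 4.64 FPKM, lay among the HFHG values of 3.35 to 4.67, and the adjusted p-value was 0.0508 with FPKM rescaled to the same sum. Without HFHG replicate 3 its log2 fold change was -0.20. Il13ra2, a decoy receptor for IL-13, fell slightly, from 37.4 ± 1.62 to 33.0 ± 1.68 FPKM (log2 fold change -0.18, limma adjusted p = 0.00217). Its level was above that of Il13ra1 in each group. Il21r, another receptor that pairs with the common gamma chain, fell as well (log2 fold change -0.65, limma adjusted p = 6.63e-04), from 2.02 ± 0.363 to 1.24 ± 0.107 FPKM. It was the only 1 of 5 such receptor genes above the filter. Of the others, named after their values were seen, Il15ra was at 0.597 and 0.221 FPKM under HFHG and low glucose and Il2rb at 0.334 and 0.0843 FPKM (p = 0.0286 for each, exact two-sided permutation test, the smallest value it can give). The groups overlapped for Il2ra (14 reads under HFHG and 10 under low glucose, p = 0.6) and Il9r (13 and 8 reads, p = 0.629) in the same permutation test.

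**Figure D3:**
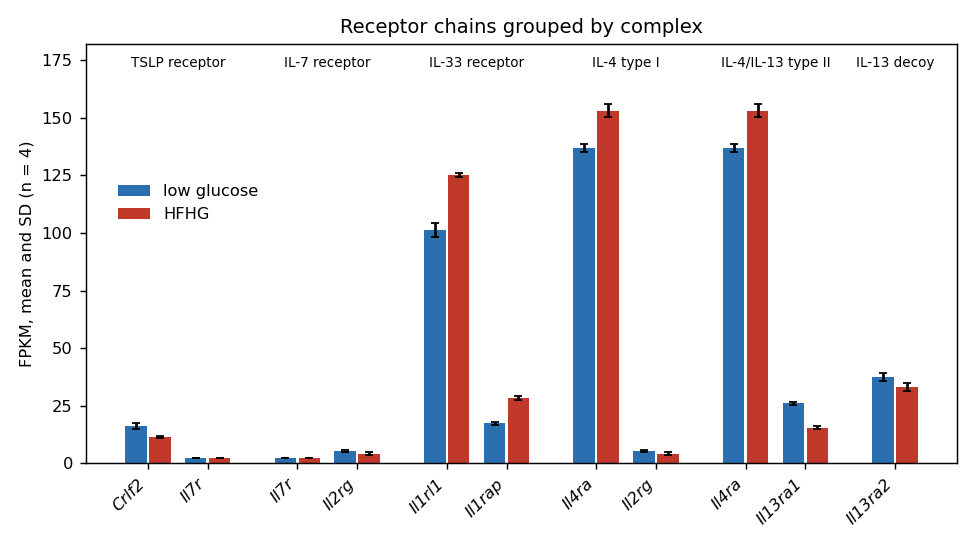
Mean FPKM (bars) and SD (n = 4) of receptor chains, grouped by the complex they form, in low glucose and HFHG; a chain that belongs to several complexes is drawn in each. Il4ra and Il1rl1 are above 100 FPKM in most libraries, while Il7r and Il2rg stay near 2 to 5 FPKM.

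Of a list of type 2 cytokines and further ligands of these receptors, beside the 3 above, Il4, Il13 and Il9 were not analysed here. Il5, a product of type 2 lymphoid cells, summed to 15 reads under HFHG and 10 under low glucose (p = 0.543, exact two-sided permutation test). Il25, the alarmin usually named together with TSLP and IL-33, had 0, 7, 1 and 0 reads in HFHG and none in low glucose (p = 0.429, exact two-sided permutation test), and the smallest p-value that 4 libraries against 4 allow is 0.0286. A count of 0 in a library allows up to 3.69 reads by a 95% exact Poisson interval, which covers counting error only. Il15, a cytokine that signals through the common gamma chain, was the single gene of this list above the filter and was named after its values were seen. It was at 0.658 to 1.03 FPKM under HFHG and at 0.186 to 0.456 FPKM under low glucose (log2 fold change 1.22). It passed the filter through the 4 HFHG libraries alone, so its call is no support for a difference.

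Among the genes that carry the signal of TSLP and IL-7, 5 of 13 rose and 3 fell (38.5% and 23.1%, against the same 34.0% and 30.8%). Cish, a feedback inhibitor induced by STAT5, rose from 0.739 ± 0.0730 to 1.68 ± 0.158 FPKM (log2 fold change 1.09, limma adjusted p = 2.02e-06). Jak1, the kinase bound to the IL-7 receptor alpha chain and to IL4RA, fell from 137.4 ± 4.41 to 74.0 ± 0.827 FPKM (log2 fold change -0.89, limma adjusted p = 2.60e-11), and Socs3, a feedback inhibitor of cytokine receptors, fell from 47.1 ± 2.19 to 35.5 ± 0.432 FPKM (-0.41, adjusted p = 4.04e-07). Jak2, the kinase bound to CRLF2, was at 4.49 ± 0.106 and 4.29 ± 0.127 FPKM under HFHG and low glucose (adjusted p = 0.294 by limma). Stat5b was at 5.70 ± 0.439 and 5.60 ± 0.198 FPKM (adjusted p = 0.787), and Stat5a was at 5.0 ± 0.119 and 4.53 ± 0.184 FPKM with an adjusted p-value of 0.0423, which was 0.268 with quantile normalization and 0.0550 to 0.118 without any 1 library other than low glucose replicates 2 and 4.

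Of the 15 tested genes of IL-33 receptor signalling, counting the coreceptor gene Il1rap, 5 rose and 6 fell (33.3% and 40.0%, against 34.0% and 30.8%). Map3k7, the kinase TAK1, rose (log2 fold change 0.58, limma adjusted p = 5.84e-08), and Irak2, a kinase of the MYD88 complex, fell (-0.46, adjusted p = 4.00e-06). Myd88 itself was at 16.2 ± 0.856 FPKM under HFHG and 17.7 ± 0.382 FPKM under low glucose (log2 fold change -0.13, limma adjusted p = 0.0180), and the adjusted p-value was 0.179 after rescaling FPKM to equal sums and 0.0529 to 0.0591 when replicate 2 or 4 of HFHG or replicate 1 of low glucose was left out. Of the 7 genes of IL-4 and IL-13 signalling, 1 rose and 2 fell (14.3% and 28.6%, against the same 34.0% and 30.8%). The one that rose was Ptpn11, a phosphatase (log2 fold change 0.20, limma adjusted p = 7.17e-05). Stat6, the transcription factor of this pathway, was at 30.7 ± 0.708 and 33.3 ± 1.20 FPKM under HFHG and low glucose (-0.12, adjusted p = 0.00933), and it did not pass after rescaling FPKM to equal sums (adjusted p = 0.216) or with quantile normalization (0.117).

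Genes known to respond to type 2 cytokines moved in both directions, 5 up and 5 down among 13 (38.5% each way, against 34.0% and 30.8% of all genes tested). Ccl11, which encodes the eosinophil chemokine eotaxin, was at 38.7 to 43.6 FPKM under HFHG and 7.21 to 8.18 FPKM under low glucose (log2 fold change 2.40, limma adjusted p = 5.34e-13). Cdkn1a rose (0.89, adjusted p = 8.66e-11) and Myc fell (-1.04, adjusted p = 2.18e-08). Both have many inducers besides these cytokines.

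Factors and sensors that are known to act on the Tslp gene in other cells rose in 15 and fell in 8 of 27 (55.6% and 29.6%, against 34.0% and 30.8% of all genes tested). Vdr, the vitamin D receptor, whose ligands induce Tslp in keratinocytes, rose from 1.25 ± 0.0574 to 3.72 ± 0.248 FPKM (log2 fold change 1.5, limma adjusted p = 4.17e-09). Nfkbia, an inhibitor and target of NF-kB, rose from 46.4 ± 1.61 to 89.3 ± 1.61 FPKM (0.94, adjusted p = 3.65e-11), and Il1r1, the receptor of IL-1, from 2.51 ± 0.145 to 4.37 ± 0.323 FPKM (0.78, adjusted p = 1.10e-06). The 8 that fell, named after their values were seen, included Fosl1 (-0.57, limma adjusted p = 9.11e-09), Relb (-0.45, 6.85e-06) and Rela (-0.22, 2.94e-05). Of the 10 tested proteases that can cut IL-33 or TSLP, or act in its release, 6 rose and 1 fell (60% and 10%, against 34.0% and 30.8% of all genes tested). Gsdmd, the pore protein of pyroptosis, rose from 27.8 ± 1.48 to 37.1 ± 1.36 FPKM (log2 fold change 0.41, limma adjusted p = 2.24e-06).

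The genes whose profile over the 8 libraries was closest to that of each gene were found by the root mean square difference of log2 values, each relative to its own low glucose mean. Closest to Tslp was Pdk4, a pyruvate dehydrogenase kinase induced by fatty acids (difference 0.218, Pearson r 0.997 over 8 libraries), which went from 1.86 to 49.1 FPKM, followed by Cilp (0.641) and Cyp2f2 (0.696). Closest to Il33 were Pgf, which encodes placental growth factor (0.197, r 0.985), Sh2d6 (0.253) and Angpt4 (0.254). Pgf was at 3.88 FPKM under HFHG and 18.5 FPKM under low glucose, and Angpt4 at 6.03 and 28.3 FPKM. For the other 6 genes, which changed less, the 3 closest genes lay within 0.0152 to 0.0741. They were Umps, Qdpr and Lamtor1 for Crlf2, Caprin2, Hoxb3 and Dnajc9 for Il7, Ergic2, Aida and Pdxk for Il7r, Atxn7l3b, Vgll3 and Fstl1 for Il1rl1, Leprot, Supt5 and Axl for Il4ra, and Lonp1, Tmpo and Nars for Il13ra1. These points share the 2 groups of libraries, which set most of the correlation. The difference depends on the fold change as well, and the log2 fold changes were 4.65 for Pdk4, 3.63 for Cilp and 3.6 for Cyp2f2. A shared cause was not tested.

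The nearest measured genes on the chromosome differed less than Tslp and Il33 did. Next to Tslp, Wdr36 (17.4 kb away) was at 26.0 FPKM in HFHG with a log2 fold change of -0.06 (limma adjusted p = 0.112), and Gypc, on the other side and 255 kb away, rose (0.90, adjusted p = 1.61e-09). Beside Il33, Ranbp6 rose (0.61, adjusted p = 6.21e-05 by limma) and Uhrf2 fell (-0.25, adjusted p = 9.04e-05). Il1rl1 stands in a cluster of receptor genes of the IL-1 family. Il18r1 begins 0.134 kb after it and summed to 17 reads under HFHG and 8 under low glucose, where Il1rl1 had 135639 and 106987, and Il1rl2 on the other side had a log2 fold change of -0.05 (limma adjusted p = 0.724). Of the genes beside the other members, Zc2hc1a and Stmn2 (beside Il7) rose by 0.56 and 1.46, Dock11 (beside Il13ra1) had -0.54 and Il21r (beside Il4ra) -0.65. Nsmce1 on the other side of Il4ra had -0.09 (adjusted p = 0.171) and 5430403G16Rik beside Crlf2 had 0.39 (adjusted p = 0.110). Gm50598, Capsl, Spef2 and Zcchc12 were below the filter.

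**Figure D4:**
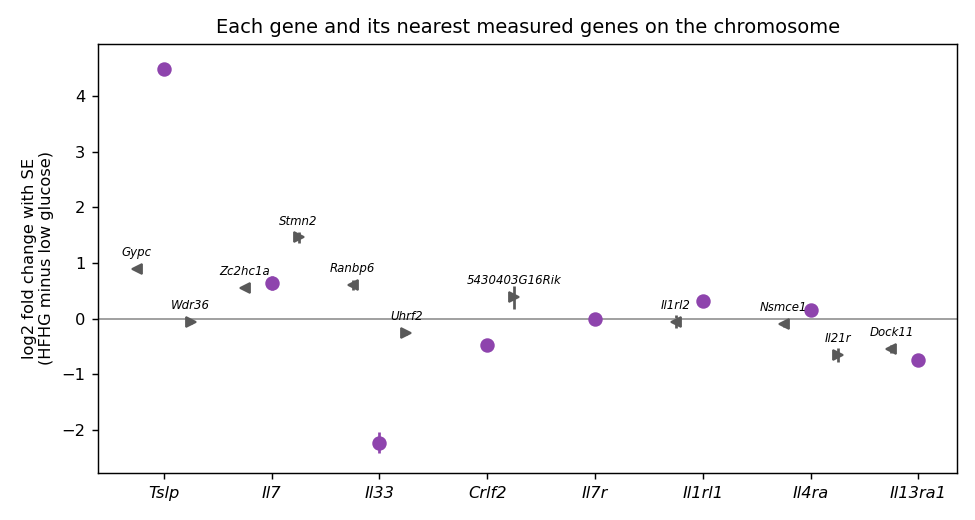
Log2 fold change (HFHG minus low glucose) with its standard error for each of the 8 genes (purple) and for the nearest gene of the table on the side of lower (left triangle) and higher coordinates (right triangle), where above the filter. Tslp at 4.48 and Il33 at -2.23 lie apart from their neighbours, which are between -0.25 and 0.90.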

How the data were processed

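mRNA of primary TSCs was sequenced from 4 HFHG and 4 low glucose libraries, with groups and replicate numbers taken from the sample titles. The authors deposited FPKM for 19301 genes, 1 column per library. HISAT2 2.1.0 and the genome build mm10 stand in the submitters' processing notes, and the counting program and annotation are not given in the sources used here. No sample column was left unused (0 columns).

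Genes with at least 0.5 FPKM in at least 4 libraries (11710 genes) were fitted with limma 3.58.1 in R 4.3.3 as log2(FPKM + 0.1), HFHG minus low glucose without covariates, with an intensity trend and Benjamini-Hochberg adjustment. Fold changes on this scale understate the change of low genes. The fit was tested on simulated data. Genes below the filter were compared with an exact permutation test (scipy 1.17.1) over 70 arrangements of the libraries. Whole reads were recovered from the FPKM as the numbers that fit 1 library total and 1 gene length (tolerance 0.001). They gave depth and counting intervals. Library totals of 34308108 to 37362725 reads set the precision.

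The genes, lists and tests were chosen with earlier results of these data known. The text names the 8 genes, a fixed set of partner and signalling genes, the 3 genes per list with the largest change at an adjusted p-value below 0.05 and a mean of at least 1 FPKM, the 3 closest profiles and the nearest genes of the table. Gene positions come from RefSeq (GRCm38.p6), matched by NCBI gene number for 99.4% of genes. Promoter windows are 250 bases long. Alternatives were other pseudocounts (1, 0.01), filters and scalings, a robust fit, the replicate number as a block, each library left out and, added after seeing the data, voom on the recovered reads. Sequences of Tslp and some genes that the rule names are not reported here.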

Additional observations from a re-analysis of the deposited data

Results flagged for a closer look

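In 65 groups of 4 libraries, from the 33 genes named as members, partners or list genes, 3 had a library far from the others, and chance alone gives such a library in about 1 of 20 groups. Il2rg in low glucose replicate 4 was at 4.64 FPKM, where the rest of its group had 5.45 to 5.50. Il21r in HFHG replicate 2 was at 1.08 FPKM, against 1.28 to 1.32. Il25 in HFHG replicate 2 was at 0.186 FPKM (7 reads), against 0 to 0.0261.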

How the results depend on the processing

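The direction of 7 of the 8 genes was kept in all 17 alternatives run for them, and Il7r, at -0.01, ran from -0.13 (quantile normalization) to 0.04. The log2 fold change of Tslp ran from 4.25 (pseudocount 1) to 4.56, that of Il33 from -2.50 (voom) to -1.18 (pseudocount 1), that of Il7 from 0.36 (pseudocount 1) to 0.70, that of Crlf2 from -0.53 to -0.42, that of Il13ra1 from -0.77 to -0.68, that of Il1rl1 from 0.29 to 0.37 and that of Il4ra from 0.14 to 0.22. With a pseudocount of 1, which shrinks low genes by construction, 197 genes of all tested rose and 106 fell by more than 2-fold, against 431 and 193, and among the pathway genes 2 rose and 0 fell, against 4 and 1. The 1 was Myc, which also lost this call with FPKM rescaled to the same sum (0 fell) and without HFHG replicate 2 or HFHG replicate 3, in a range of 0 to 1 over the fits without 1 library. Jak2 (-0.01) and Stat5b (-0.05) changed sign with quantile normalization without passing the threshold, and Stat5b ran from -0.02 to 0.07 over the fits without 1 library. Myd88 did not pass in 4 alternatives and Stat5a in 10, and the cause was not tested. Replicate numbers did not pair the libraries (correlations of deviations from the group means -0.130 to -0.00136). With the number as a replicate block, 33 pathway genes rose and 25 fell, where 3841 of all genes tested rose and 3501 fell. Precision of Il33 and Il7 is limited by 29 to 249 reads per library.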
